A study of Mus musculus with 30 samples.

Results

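The collagen genes of mouse dorsal root ganglia were followed in 10 groups of drug-treated and saline-treated mice. The members are protein-coding rows of the deposited expression table whose gene symbol names a collagen alpha chain (Col, a type number, a, a chain number). Symbols that the selection rule leaves out are not among them, so the family is not complete here. The members numbered 43 of 56686 genes. A filter on low values (at least 1 TPM in at least 3 libraries) was passed by 40 of them, out of 25434 genes that passed in all, and Col9a1, Col17a1 and Col23a1 were not tested. TPM (transcripts per 1000000) is an abundance scaled for transcript length and for the total of each library, so levels can be compared between genes.

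Collagens are secreted or membrane proteins in which alpha chains wind around each other into a rope-like helix. Fibrillar collagens give tissue its tensile strength, type IV collagen forms the sheet of the basement membrane, and the remaining types link, cover or anchor these structures. In a dorsal root ganglion, type IV collagen lies in the basement membrane around satellite glia and Schwann cells, and fibrils of types I and III fill the endoneurium and the capsule.

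The ganglia, which hold the cell bodies of sensory neurons, were taken at lumbar levels L3 to L5 from male wild-type C57BL/6J mice after perfusion with RNAlater. On day 2 the groups were CVAD, cyclophosphamide, dexamethasone and saline. On day 8 they were CVAD, cyclophosphamide, vincristine, doxorubicin, dexamethasone and saline. CVAD is a leukaemia regimen that combines cyclophosphamide, vincristine, doxorubicin and dexamethasone, and the single-drug groups received 1 of these agents. No dose is given in the sources used here. Each group had 3 libraries, 30 in all. The labels do not say whether a library is 1 animal or a pool, so p-values measure only the spread between these libraries. The tissue is bulk, where fewer cells of a type and less RNA per cell cannot be told apart.

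Promoter sequences of 4 members are shown because these genes carry the results below. Col3a1 belongs to the set of fibril genes that varied together, Col5a1 and Col24a1 are fibrillar genes that did and did not vary with it, and Col6a5 had the smallest p among the members on day 2. Each run is the 250 bases upstream of the transcript start in RefSeq on GRCm38.p6, 5′ to 3′ on the strand of the gene. The coordinates are chr1:45311288-45311537 on the plus strand for Col3a1, chr2:27886175-27886424 on the plus strand for Col5a1, chr3:145292222-145292471 on the plus strand for Col24a1 and chr9:105960644-105960893 on the minus strand for Col6a5. Capitals mark the motifs TATAAA and GGGCGG read on either strand (GGGCGG read on the other strand is CCGCCC).
Col3a1: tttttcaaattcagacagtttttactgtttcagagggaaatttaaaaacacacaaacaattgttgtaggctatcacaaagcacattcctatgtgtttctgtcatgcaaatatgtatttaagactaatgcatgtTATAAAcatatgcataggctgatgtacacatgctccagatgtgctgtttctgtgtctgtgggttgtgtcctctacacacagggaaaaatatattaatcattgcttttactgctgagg
Col5a1: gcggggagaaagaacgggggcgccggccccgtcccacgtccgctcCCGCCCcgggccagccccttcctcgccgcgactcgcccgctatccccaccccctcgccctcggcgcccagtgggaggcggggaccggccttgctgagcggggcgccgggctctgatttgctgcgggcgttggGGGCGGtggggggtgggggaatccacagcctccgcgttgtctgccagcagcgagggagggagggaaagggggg
Col24a1: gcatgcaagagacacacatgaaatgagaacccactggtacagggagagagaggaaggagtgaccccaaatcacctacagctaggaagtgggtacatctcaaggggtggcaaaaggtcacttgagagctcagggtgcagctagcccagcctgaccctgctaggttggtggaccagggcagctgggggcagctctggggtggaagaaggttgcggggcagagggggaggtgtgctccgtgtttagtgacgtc
Col6a5: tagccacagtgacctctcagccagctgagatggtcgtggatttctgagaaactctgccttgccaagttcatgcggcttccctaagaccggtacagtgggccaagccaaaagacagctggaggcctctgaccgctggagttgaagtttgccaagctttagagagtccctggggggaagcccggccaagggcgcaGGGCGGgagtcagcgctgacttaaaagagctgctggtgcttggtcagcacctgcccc

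The windows differ in composition. Col3a1 had 35.2% G and C and a TATAAA whose first base lay 117 bases before the start. Col5a1 had 76.4% G and C and a GGGCGG at 73 and at 205 bases before the start. Col6a5 had 58.8% G and C and a GGGCGG at 57 bases, and the window of Col24a1, with 58.0% G and C, held none of the motifs searched. RefSeq entries were found for 35 of the 43 genes (38 entries). GGGCGG was present in 22 of these 38 (57.9%) and in 32.7% of the 32851 promoters in the RefSeq table, CCAAT in 13 (34.2%) against 33.8%, TATAAA in 5 (13.2%) against 12.4%, and CACGTG in 0 against 6.02%, counting both strands. A match describes the letters of the window only.

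The libraries gave values above 0 for 25342 to 27972 genes, and coding genes held 60.5 to 73.8% of the TPM. Read numbers are not given in the sources used here, so the depth is unknown. An exact 0 in such a table can be a failed estimate: Rps2, a ribosomal protein gene, is listed at 0 in 30 of 30 libraries, whereas Actb is at 0 in no library and averaged 296 TPM. Genes with a library at 0 are therefore described as listed at 0, library by library. The tissue label was met by its markers, with summed levels of 995 to 1413 TPM for the sensory neuron list, 1416 to 2006 for the Schwann cell list and 588 to 761 for the satellite glia list. The 8 fibroblast markers summed to 557 to 764 TPM, with none at 0 in every library. Bone markers (54.2 to 238 TPM, 10 genes), marrow granulocyte markers (65.4 to 364) and skeletal muscle markers (9.68 to 1117) varied far more between libraries. So did spinal cord markers (4.40 to 137) and adipocyte markers (29.3 to 155), and meningeal markers ran from 116 to 297.

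Transcripts of the members summed to 1328 to 2329 TPM (median 1864), which was 0.204 to 0.329% of the TPM of coding genes. Fibrillar collagens held 46.0% of that sum, beaded-filament collagens (type VI) 12.6%, fibril-associated collagens 11.96%, basement membrane collagens (type IV) 11.7%, multiplexins 7.39%, types XXVI and XXVIII 4.66%, network collagens 4.58%, transmembrane collagens 0.809% and the anchoring-fibril collagen 0.306%. The mean was under 1 TPM for 6 members: Col10a1, Col4a6, Col6a4, Col9a1, Col17a1 and Col23a1. Those were under 1 TPM in 20, 26, 27, 29, 30 and 30 of the 30 libraries.

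**Figure D1:**
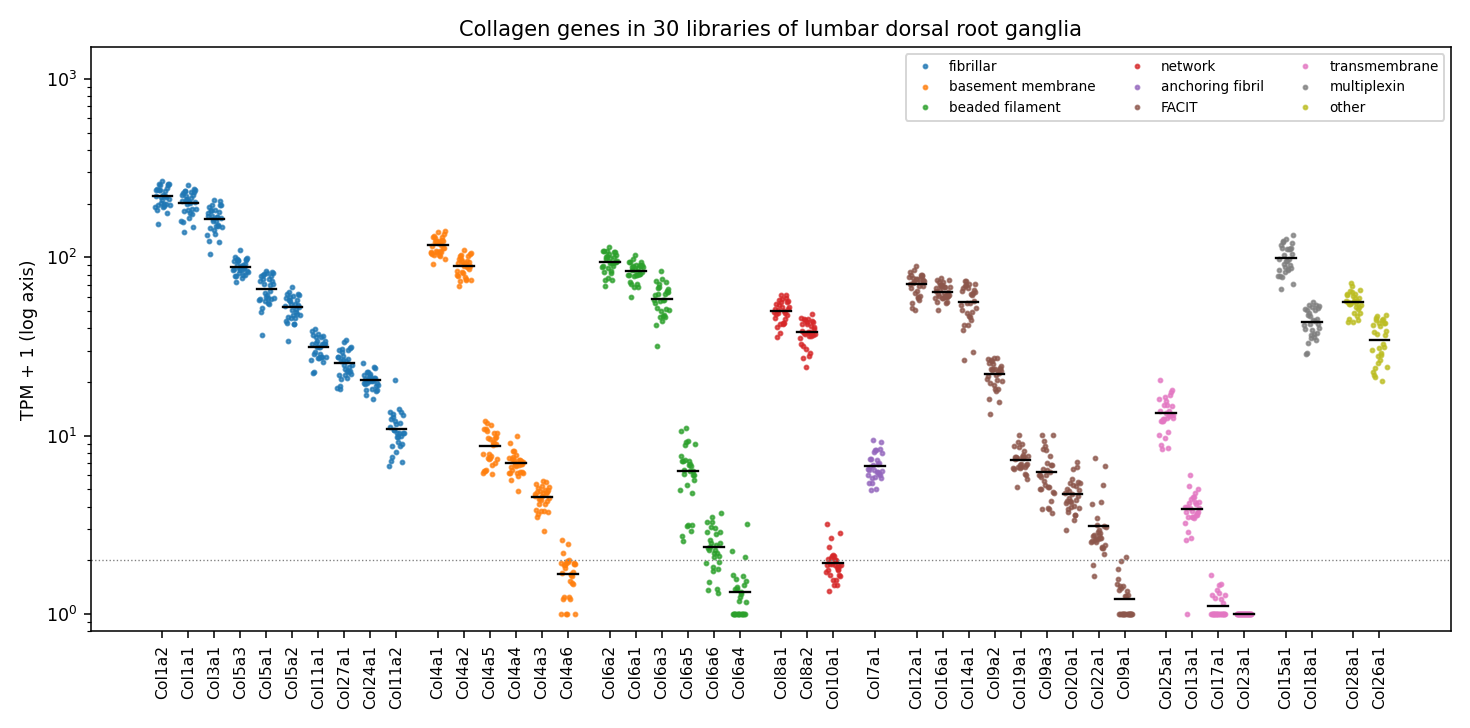
Level of each collagen gene in TPM (log axis), 1 point per library for 30 libraries, with genes ordered by structural class. The fibrillar genes Col1a2, Col1a1 and Col3a1 stand highest, and Col23a1 is listed at 0 in every library.

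Among the fibrillar genes, Col1a2 and Col1a1, the chains of type I collagen, had the highest levels. Col1a2 ran from 153 to 267 TPM and averaged 219 ± 28.3 (SD, n = 30), and Col1a1 from 137 to 254 with a mean of 201 ± 30.1. Col3a1, the chain of type III collagen, ran from 103 to 209 TPM with a mean of 164 ± 26.2. These ranges overlap, so the order of the 3 genes is one of means. Type V collagen, which sets fibril diameter, followed with Col5a3 at 87.5 ± 8.34, Col5a1 at 65.7 ± 11.9 and Col5a2 at 51.5 ± 7.94 TPM. The minor fibrillar genes were Col11a1 (30.3 ± 4.38), Col27a1 (24.6 ± 4.37), Col24a1 (19.5 ± 2.15) and Col11a2 (9.84 ± 2.75).

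Type IV collagen was led by Col4a1 at 115 ± 12.6 TPM (90.9 to 138) and Col4a2 at 88.1 ± 10.9 (68.1 to 108), the chains of the general basement membrane. The chains of specialised basement membranes, such as that of the kidney glomerulus, were far lower, with Col4a5 at 7.72 ± 1.82, Col4a4 at 6.01 ± 1.02 and Col4a3 at 3.51 ± 0.639 TPM. Col4a6 is listed at 0 in 4 libraries.

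Type VI collagen forms beaded filaments around cells. Col6a2 averaged 92.9 ± 11.6 TPM, Col6a1 82.3 ± 9.66 and Col6a3 57.3 ± 11.5. The later-described chains that are related to Col6a3 were low, at 5.36 ± 2.30 for Col6a5 and 1.37 ± 0.639 for Col6a6, and Col6a4 is listed at 0 in 14 libraries. Col6a5 had a spread within groups of 0.50 (SD of log2(TPM + 1)), against 0.22 for Col1a2.

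The network collagens Col8a1 and Col8a2, short chains of vessel walls and other basement membranes, averaged 49.0 ± 6.89 and 37.0 ± 6.08 TPM. Col10a1, a gene of hypertrophic cartilage, averaged 0.940 ± 0.406 TPM and reached a mean of 1 TPM in 3 groups, CVAD and cyclophosphamide on day 2 and doxorubicin on day 8. Col7a1, which forms the anchoring fibrils of skin, averaged 5.80 ± 1.17 TPM.

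Fibril-associated collagens sit on the surface of fibrils. Col12a1 averaged 69.8 ± 9.88 TPM, Col16a1 63.2 ± 6.40 and Col14a1 55.0 ± 12.8. Lower members were Col9a2 (21.1 ± 3.66), Col19a1 (6.34 ± 1.07), Col9a3 (5.24 ± 1.82), Col20a1 (3.69 ± 0.979) and Col22a1 (2.13 ± 1.30). Col9a1, the remaining chain of type IX collagen, is listed at 0 in 17 libraries.

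Of the transmembrane collagens, Col25a1 averaged 12.4 ± 2.87 TPM. Col13a1 is listed at 0 in 1 library, Col17a1, a hemidesmosome component, in 20 and Col23a1 in all 30. The multiplexins of the basement membrane zone were well represented, with Col15a1 at 97.7 ± 17.7 TPM and Col18a1, the precursor of endostatin, at 42.5 ± 7.84. Col28a1, a collagen known from peripheral nerve, averaged 54.9 ± 7.49 TPM, and Col26a1 averaged 33.4 ± 8.88.

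The summed level of the members overlapped between each drug group and the saline group of its day. On day 2, saline libraries stood at 1552, 1789 and 2107 TPM, CVAD at 1715, 2063 and 1990.2, cyclophosphamide at 1834, 1885 and 1843, and dexamethasone at 2069.5, 1726 and 1786. On day 8, saline libraries stood at 2174, 1733 and 1742 TPM, CVAD at 2154, 2329 and 1671, and cyclophosphamide at 1328, 1724 and 2061. Vincristine stood at 1608, 2071 and 2172, doxorubicin at 2136, 1791 and 1906, and dexamethasone at 2079.6, 1651 and 2215. The libraries of 1 group differed by as much as the groups did, and cyclophosphamide replicate 1 of day 8 was the lowest of the 30.

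**Figure D2:**
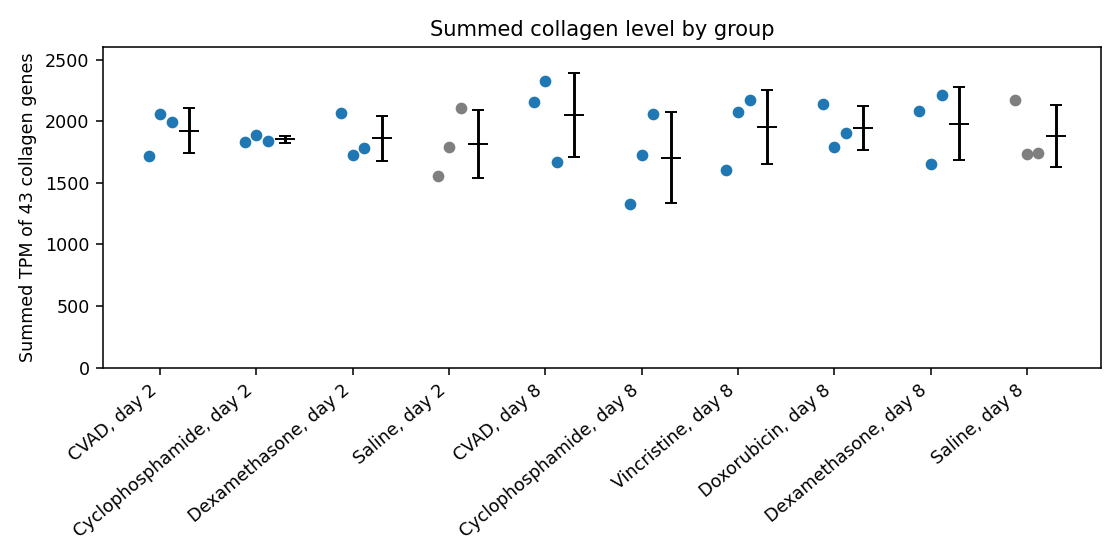
Summed TPM of the collagen genes in each group, 1 point per library with the mean and SD of 3 libraries (saline in grey). Every drug group overlaps the saline group of its day, and the lowest point, 1328 TPM, is a cyclophosphamide library of day 8.

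The abundant chains that assemble into the same protein, and Col3a1 beside Col1a1, kept narrow ranges of proportion. The ratio of Col1a1 to Col1a2 in TPM was 0.920 ± 0.0546 (SD, n = 30, range 0.833 to 1.05), and the ratio of Col3a1 to Col1a1 was 0.812 ± 0.0400. Col6a1 over Col6a2 was 0.887 ± 0.0354, Col4a1 over Col4a2 1.31 ± 0.0534, Col5a1 over Col5a2 1.27 ± 0.0902 and Col8a1 over Col8a2 1.34 ± 0.119. Other chain pairs were looser. The ratio of Col6a3 to Col6a1 was 0.692 ± 0.0842, with group means from 0.597 in cyclophosphamide to 0.743 in CVAD, both on day 8. Col4a3 over Col4a4 was 0.589 ± 0.0930, and Col9a2 over Col9a3 ranged from 1.35 to 8.40.

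The 12 pairs of chains were tested for correlation of log2(TPM + 1) over the 30 libraries, with 2-sided permutation tests of 100000 resamples adjusted by the Benjamini-Hochberg method over the 12 pairs. An adjusted p of 1.5e-05 below belongs to a raw p of 1e-05, the smallest that these permutations can give. Libraries share 1 total of TPM each, so genes of a library are not independent of its composition. Col1a1 and Col1a2 had r = 0.93 and rho = 0.94 (adjusted p = 1.5e-05 for each), with r = 0.87 within day 2, 0.95 within day 8 and 0.90 without the 2 libraries farthest from the median. Col1a1 and Col3a1 had r = 0.96 and rho = 0.93 (adjusted p = 1.5e-05, permutation).

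Basement membrane and filament chains were paired as closely. Col4a1 and Col4a2, which lie head to head on chromosome 8 with starts 21 bases apart on opposite strands, had r = 0.95 and rho = 0.94 (adjusted p = 1.5e-05, permutation). Their gene bodies share 22 bases, and whether the counting used the strand is not given in the sources used here. Col6a1 and Col6a2 had r = 0.95 and rho = 0.94, Col5a1 and Col5a2 r = 0.93 and rho = 0.92, Col8a1 and Col8a2 r = 0.86 and rho = 0.81, Col15a1 and Col18a1 r = 0.86 and rho = 0.85, and Col6a1 and Col6a3 r = 0.85 and rho = 0.81. Each had an adjusted p of 1.5e-05 by permutation for r and for rho. Within days the r of these 6 pairs ranged from 0.75 (Col6a1 and Col6a3 on day 2) to 0.97 (Col4a1 and Col4a2 on day 8).

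Weaker relations were found among the low chains. Col4a3 and Col4a4, head to head on chromosome 1 with starts 72 bases apart, had r = 0.61 and rho = 0.58 (adjusted p = 0.000413 and 0.00118, permutation). Col11a1 and Col11a2 had r = 0.60 and rho = 0.63 (adjusted p = 0.000516 and 0.000333, permutation). Col4a5 and Col4a6, on the X chromosome with starts 1309 bases apart, had r = 0.45 and rho = 0.45 (adjusted p = 0.0146 and 0.0155, permutation). Their r without the 2 libraries farthest from the median was 0.56, 0.48 and 0.39. Within days these relations were less firm. Col4a3 and Col4a4 had r = 0.51 on day 2 (p = 0.0886, permutation) and 0.64 on day 8 (p = 0.00428, permutation). Col4a5 and Col4a6 had 0.52 (p = 0.0857) and 0.41 (p = 0.0898), by permutation, so this pair missed 0.05 within each day. Col11a1 and Col11a2 had 0.68 (p = 0.0140) and 0.54 (p = 0.0208), by permutation, and r = 0.30 within libraries 18 to 30.

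Col9a2 and Col9a3, which encode chains of the same type IX protein, were the pair that missed the threshold, with r = 0.20 and rho = 0.33 (adjusted p = 0.302 and 0.0731, permutation). Without the 2 farthest libraries r was 0.43, and without cyclophosphamide replicate 1 of day 8 it was 0.47, so this value rests on few libraries. That p does not show the 2 genes to be unrelated.

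**Figure D3:**
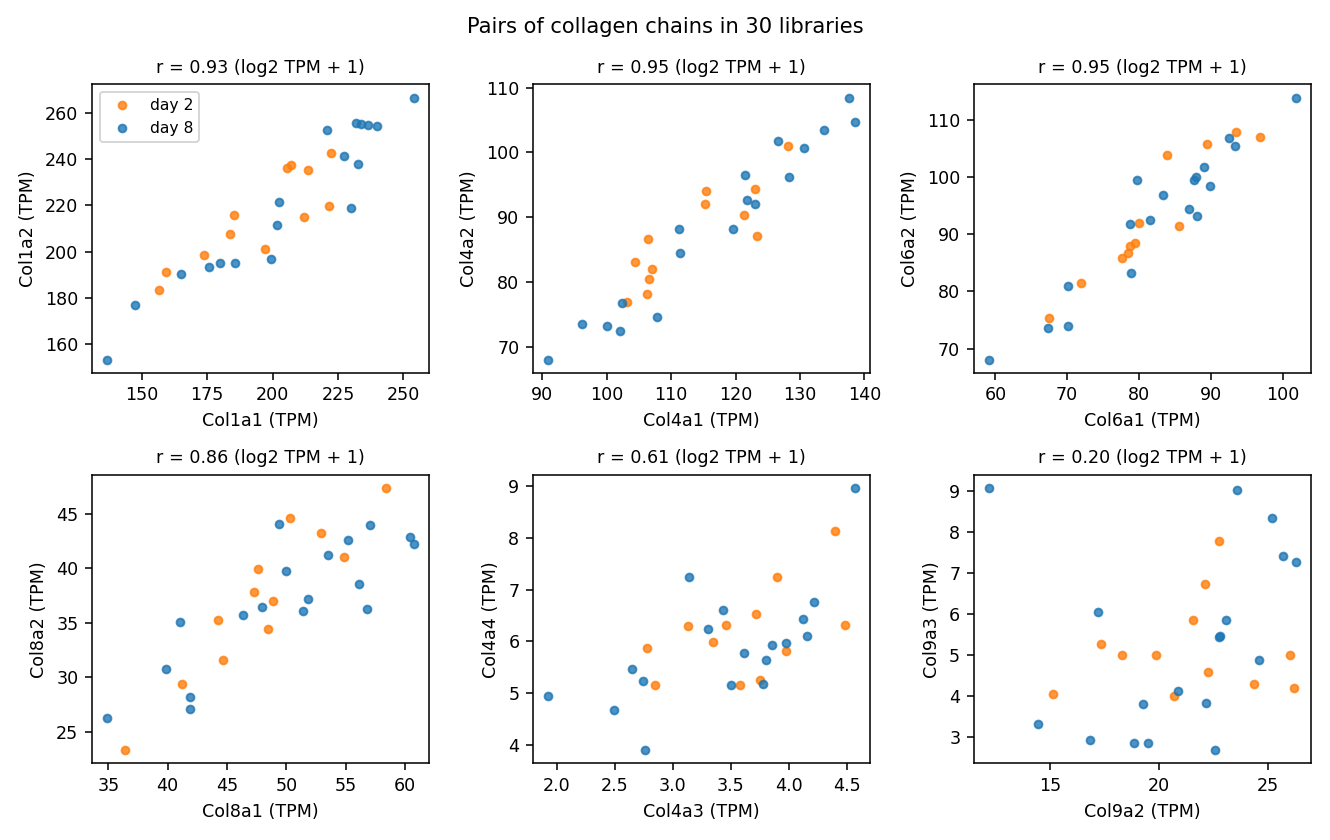
Levels of 6 pairs of collagen chains plotted against each other in TPM, 1 point per library, coloured by day. Points of Col1a1 and Col1a2, Col4a1 and Col4a2, and Col6a1 and Col6a2 lie along a line on both days, whereas those of Col9a2 and Col9a3 scatter.

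Covariation with Col1a1, the chain of type I collagen at chromosome 11, separated the members. This measure was chosen after the data were seen and is given without a test. The median r of the other 39 tested members with Col1a1 was 0.53, beside 0.16 over the other 25433 tested genes, and 22 of 39 members (56.4%) had r above 0.5 against 8.19% of all tested genes. After rescaling to the coding total, the medians were 0.45 and −0.04. The highest values were those of Col3a1 (0.96), Col1a2 (0.93), Col9a2 (0.84), Col11a1 (0.78), Col14a1 (0.78), Col15a1 (0.78) and Col5a1 (0.77). At the other end were Col19a1 (−0.18), Col24a1 (−0.15), Col7a1 (−0.12), Col20a1 (−0.08), Col6a4 (−0.04) and Col25a1 (−0.02). The fibrillar class was not uniform in this measure, since it held both Col3a1 and Col24a1.

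Each drug was compared with the saline group of its day to ask whether collagen expression differed. Fits were made with limma on log2(TPM + 1) over all tested genes, with 1 variance per gene shared by the 10 groups and Benjamini-Hochberg adjustment over 25434 genes. On this scale the differences of low genes are understated. None of the 40 tested members passed an adjusted p of 0.05 in any of the 8 comparisons (0 of 40 in each). Drugs of 1 day share their saline libraries, so the comparisons of a day are not independent.

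On day 2 the background of called genes was small. CVAD called 0.0432% of all tested genes and 0 members, with 2 of 40 members (5%) at an unadjusted p under 0.05 against 8.19% of all genes. Cyclophosphamide called 0.0118% of all genes and 0 members, with 5 members (12.5%) at an unadjusted p under 0.05 against 7.51%. Dexamethasone called 0.00393% and 0 members, with 3 (7.5%) against 5.37%.

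The directions of the members on day 2 depended on the scaling and on single libraries. Of the 40 members 31 were higher in CVAD than in saline (median log2 difference 0.11, beside 0.07 over all genes), and 25 after median-ratio scaling. For cyclophosphamide 23 were higher (median 0.04 beside 0.06), or 18 after that scaling, where the median became −0.02. For dexamethasone 27 were higher (0.06 beside 0.06), or 21. Before that scaling, 65.9% of all tested genes were higher in CVAD, 64.7% in cyclophosphamide and 65.3% in dexamethasone. All 10 fibrillar genes were higher in CVAD, with a median of 0.11. Without saline replicate 1 of day 2 the member median was 0.00627 for CVAD and −0.06 for cyclophosphamide. With a term for the ranges of library numbers described below, the medians were 0.02 for CVAD, −0.07 for cyclophosphamide and −0.02 for dexamethasone.

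On day 8 limma called 0% of all genes for CVAD and 0 members, with 2 members (5%) at an unadjusted p under 0.05 against 5.98% of all genes. Cyclophosphamide called 0.00786% and 0 members, with 4 members (10%) against 5.76%. Vincristine, doxorubicin and dexamethasone called 0% each and 0 members each. In those groups 0 members had an unadjusted p under 0.05, against 3.44%, 3.35% and 3.26% of all genes.

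On day 8 most members stood above saline in every drug group but cyclophosphamide, where most stood below. In CVAD 28 of 40 members were higher than saline, with a median log2 difference of 0.17 beside 0.02 over all genes, and the 6 type IV genes were all higher (median 0.23). In cyclophosphamide 31 of 40 were lower, with a median of −0.11 beside −0.04, and the 6 type VI genes were all lower (median −0.46). Of all tested genes, 54.2% were higher in CVAD and 37.9% in cyclophosphamide. The cyclophosphamide median ran from −0.25 without its replicate 3 to −0.00266 without its replicate 1, and the CVAD median from 0.07 without saline replicate 2 to 0.26 without saline replicate 1. With the same term for library numbers, the CVAD median was 0.48, and the cyclophosphamide median turned to 0.08. On day 8 that term rests on cyclophosphamide replicates 1 and 2 against replicate 3, the only group that spans the ranges concerned. Vincristine (28 higher, median 0.04), doxorubicin (26 higher, 0.06) and dexamethasone (29 higher, 0.05) lay near saline, with doxorubicin at 31 higher when scaled to the coding total.

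**Figure D4:**
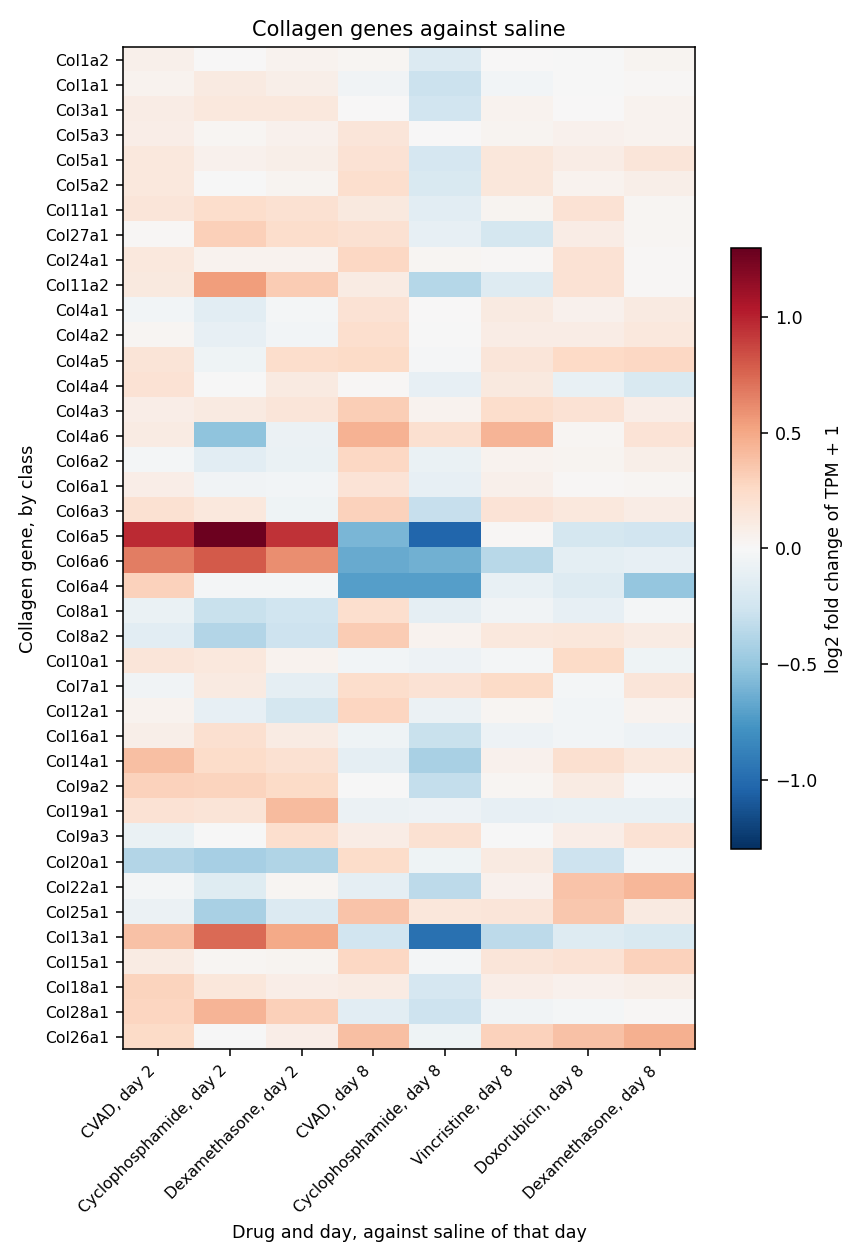
Log2 differences from saline of the same day for the 40 tested collagen genes (rows) in 8 comparisons (columns), from limma on log2(TPM + 1). Col6a5 and Col6a6 are higher in the day 2 drug groups and lower with cyclophosphamide on day 8, and no cell passes an adjusted p of 0.05.

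The main fibril gene shows the size of difference that the spread allowed. Col1a1 stood at 157, 184 and 222 TPM in saline of day 2, at 159, 207 and 213 in CVAD, at 222, 212 and 174 in cyclophosphamide and at 206, 197 and 185 in dexamethasone. On day 8 it stood at 221, 229.9 and 186 in saline, at 227, 254 and 147 in CVAD, at 137, 165 and 232 in cyclophosphamide and at 233, 176 and 237 in dexamethasone. Vincristine libraries had 179.9, 203 and 239.8 TPM and doxorubicin libraries 234, 199 and 202. The groups overlap everywhere. The log2 difference from saline ran from −0.28 ± 0.19 (SE) for cyclophosphamide on day 8, with a 95% interval of −0.67 to 0.11, to 0.12 ± 0.19 for cyclophosphamide on day 2.

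Col4a1 of the basement membrane also overlapped. It stood at 127, 108 and 96.2 TPM in saline of day 8 and at 128, 138 and 111 in CVAD. On day 2 it was at 103, 121 and 128 in saline and at 106, 107 and 106 in cyclophosphamide. Its partner Col4a2 was at 102, 74.7 and 73.6 in saline of day 8, at 96.3, 108 and 84.6 in CVAD and at 68.1, 88.2 and 92.6 in cyclophosphamide. The log2 difference of Col4a2 ran from −0.11 ± 0.15 for cyclophosphamide on day 2 to 0.22 ± 0.15 for CVAD on day 8 (adjusted p = 0.915 and 0.939, limma).

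The other abundant fibril genes stayed within a similar spread. Col1a2 was at 253, 219 and 195 TPM in saline of day 8, at 242, 267 and 177 in CVAD and at 153, 190.3 and 256 in cyclophosphamide. Its log2 difference from saline ran from −0.18 ± 0.17 for cyclophosphamide on day 8 (95% interval −0.52 to 0.16) to 0.07 ± 0.17 for CVAD on day 2. Col3a1 was at 194, 168 and 147 in saline of day 8, at 191, 209 and 121 in CVAD and at 103, 134 and 206 in cyclophosphamide. In both genes the groups overlap, with CVAD replicate 3 and cyclophosphamide replicate 1 as the low libraries. Col5a3, the type V chain of highest level, ran from 0.01 ± 0.12 for cyclophosphamide to 0.16 ± 0.12 for CVAD, both on day 8.

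Among the abundant type VI chains, Col6a1 was at 87.9, 67.3 and 87.0 TPM in saline of day 8, at 92.5, 102 and 79.7 in CVAD and at 59.1, 78.8 and 88.0 in cyclophosphamide. The largest log2 difference of Col6a2 from saline was 0.26 ± 0.15 for CVAD on day 8 (95% interval −0.04 to 0.57, adjusted p = 0.891, limma). These chains overlapped saline in every drug group.

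Among the network members, the type VIII genes had groups that did not overlap in some comparisons. The share of all tested genes without overlap was not counted, so here and below this describes the libraries only. Col8a1 was at 44.7, 41.2 and 44.3 TPM in cyclophosphamide on day 2 and at 47.2, 54.8 and 58.4 in saline (log2 difference −0.29 ± 0.15, adjusted p = 0.704, limma). Col8a2 was at 31.6, 29.4 and 35.2 in the same cyclophosphamide libraries and at 37.8, 41.0 and 47.4 in saline (−0.38 ± 0.20, adjusted p = 0.695, limma). Both chains were thus below every saline library of day 2. On day 8 Col8a2 was at 41.3, 42.3 and 42.9 in CVAD and at 36.3, 28.2 and 36.1 in saline, without overlap (0.33 ± 0.20, adjusted p = 0.901, limma). The 6 meningeal markers summed to 164 to 207 TPM in cyclophosphamide of day 2 and to 215 to 266 in saline. On day 8 they summed to 224 to 264 in CVAD and to 144 to 213 in saline. These sums did not overlap either, and their part in the type VIII values was not tested.

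Fibril-associated collagens differed in spread. Col12a1 was at 79.0, 88.7 and 76.0 TPM in CVAD on day 8, above saline at 71.9, 56.8 and 73.1 (0.28 ± 0.16, adjusted p = 0.901, limma). Col14a1, with 65.9, 66.5 and 28.6 in CVAD, 25.5, 46.1 and 55.6 in cyclophosphamide and 72.5, 43.4 and 51.1 in saline of day 8, overlapped in all comparisons. Its log2 difference from saline ran from −0.42 ± 0.29 for cyclophosphamide on day 8 to 0.39 ± 0.29 for CVAD on day 2.

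Of the remaining classes, the multiplexin Col15a1 was at 122, 85.0 and 69.7 TPM in saline of day 8, at 117, 125 and 86.1 in CVAD and at 65.3, 93.8 and 112 in cyclophosphamide, and it overlapped saline in every drug group. Col25a1, a transmembrane collagen of neurons, was at 9.10, 11.3 and 11.8 in cyclophosphamide on day 2 and at 12.8, 15.6 and 15.8 in saline, without overlap (−0.42 ± 0.25, adjusted p = 0.747, limma). Col7a1 stood at 5.39, 7.05 and 5.07 in saline of day 2 and at 4.76, 5.25 and 5.33 in saline of day 8, with log2 differences from −0.12 ± 0.22 for dexamethasone on day 2 to 0.25 ± 0.22 for vincristine. Its drug groups overlapped saline.

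Col6a5 (chromosome 9), a type VI chain related to Col6a3, had the smallest p among the members in each comparison with saline on day 2. On day 2 it stood at 1.74, 2.12 and 3.75 TPM in saline, at 3.97, 7.85 and 5.93 in CVAD, at 6.72, 9.999 and 5.73 in cyclophosphamide and at 9.63, 8.27 and 1.91 in dexamethasone. All CVAD and cyclophosphamide libraries lay above all saline libraries, whereas dexamethasone replicate 3 lay among them. The log2 difference from saline was 0.97 ± 0.39 for CVAD (adjusted p = 0.486, limma), 1.27 ± 0.39 for cyclophosphamide (adjusted p = 0.394) and 0.94 ± 0.39 for dexamethasone (adjusted p = 0.891).

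On day 8 saline itself was higher for Col6a5. Its libraries stood at 6.35, 5.33 and 8.02 TPM, those of CVAD at 6.21, 4.31 and 2.17 and those of cyclophosphamide at 1.57, 2.14 and 5.06. All cyclophosphamide libraries lay below saline, with a log2 difference of −1.04 ± 0.39 (adjusted p = 0.724, limma). Vincristine (6.26, 8.38 and 5.31), doxorubicin (5.07, 6.18 and 5.03) and dexamethasone (5.44, 5.81 and 4.68) overlapped saline. Saline of day 8 was above saline of day 2 by 1.12 ± 0.39 (adjusted p = 0.537), so the direction against saline turned with the saline group.

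Col6a6, the neighbour of Col6a5 on chromosome 9, followed the same order. It stood at 0.361, 0.740 and 0.793 TPM in saline of day 2, below CVAD (0.946, 2.09 and 1.80) and cyclophosphamide (1.88, 2.49 and 1.21), with log2 differences of 0.66 ± 0.30 (adjusted p = 0.569, limma) and 0.79 (adjusted p = 0.550). Dexamethasone had 2.30, 2.27 and 0.379. On day 8 saline (1.50, 1.43 and 2.69) lay above CVAD (1.35, 0.845 and 0.317), with −0.66 ± 0.30 (adjusted p = 0.791), and above cyclophosphamide (0.509, 1.08 and 0.955), with −0.62 (adjusted p = 0.862). Group means were under 1 TPM in saline of day 2 and in CVAD and cyclophosphamide of day 8.

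The library numbers that serve as column names moved with these 2 genes. Libraries 1 to 8 are all CVAD and cyclophosphamide libraries of day 2 with dexamethasone replicates 1 and 2. Libraries 9 to 17 are dexamethasone replicate 3 and all saline of day 2, all CVAD of day 8 and cyclophosphamide replicates 1 and 2 of day 8, and libraries 18 to 30 are the rest. What the numbers stand for is not given in the labels. Col6a5 ranged from 3.97 to 9.999 TPM (median 7.28) in libraries 1 to 8, from 1.57 to 6.21 (median 2.14) in 9 to 17 and from 4.68 to 8.38 (median 5.44) in 18 to 30. Col6a6 medians were 1.98, 0.740 and 1.43, while those of Col1a1 were 206, 184 and 221. Dexamethasone replicate 3 of day 2, at 1.91 TPM of Col6a5, and cyclophosphamide replicate 3 of day 8, at 5.06, each lay with the libraries of their number range and apart from the others of their group. The limits of the ranges are not in the labels and were set with the data known. The places of these libraries are thus no separate support for the ranges. Every CVAD and cyclophosphamide library of day 2 is in the first range and every saline library of day 2 in the second, so drug and number range cannot be told apart by these groups alone. A fit with a term for the 3 ranges, added after the data were seen, turned the direction on day 2: the log2 difference of Col6a5 was −0.80 for CVAD, −0.50 for cyclophosphamide and −0.24 for dexamethasone, and that of Col6a6 for CVAD was −0.59, each with an adjusted p of 1 in limma. With this term the log2 difference of Col6a5 for cyclophosphamide on day 8 was −0.31.

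The level of bone markers was set beside that of Col6a5, and their correlation over libraries was not computed. On day 2 the libraries had the same order in both measures within saline, cyclophosphamide and dexamethasone. The orders differed in CVAD of day 2, where replicate 2 had the lowest bone sum and the highest Col6a5. On day 8 the orders differed within each group. Of the 10 bone markers none was at 0 in every library, and their summed level was 54.2 to 187 TPM (median 61.0) in saline of day 2, 110.0 to 144 in CVAD, 91.1 to 238 in cyclophosphamide and 107 to 137 in dexamethasone. On day 8 it was 126 to 153 in saline, 59.4 to 140.4 in CVAD and 60.1 to 80.6 in cyclophosphamide. Vincristine had 88.4 to 151, doxorubicin 120 to 173 and dexamethasone 67.8 to 177 on that day. With the mean log2 level of the bone and cartilage markers as a covariate, the log2 differences of Col6a5 were 0.86 for cyclophosphamide and 0.66 for CVAD on day 2, and −0.70 for cyclophosphamide on day 8. The part of bone in these values was otherwise not tested.

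**Figure D5:**
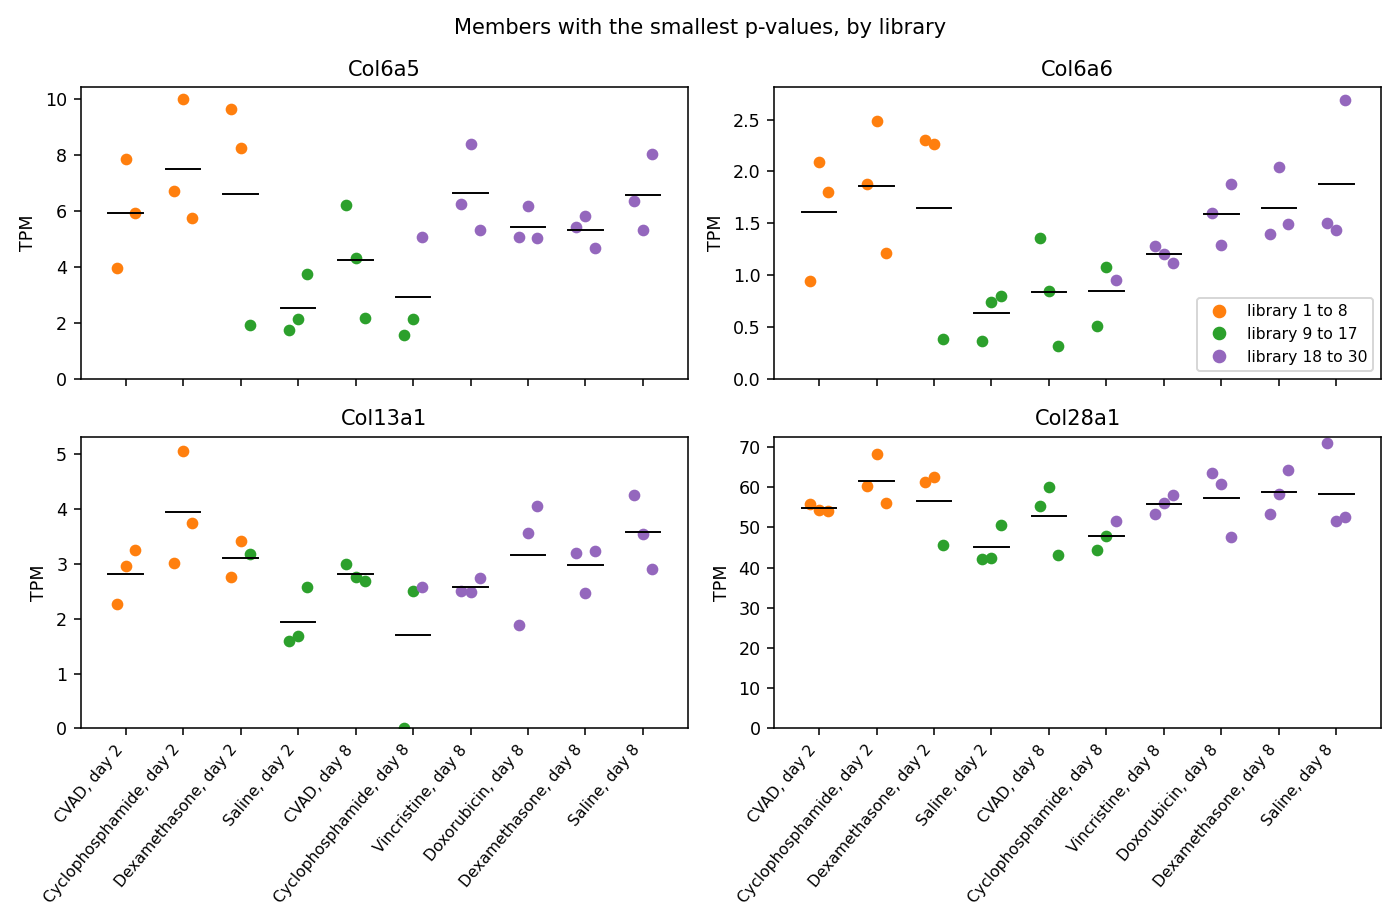
Levels in TPM of Col6a5, Col6a6, Col13a1 and Col28a1 by group, 1 point per library, coloured by library number (1 to 8, 9 to 17, 18 to 30), with a bar at the group mean. For Col6a5 the libraries 9 to 17 lie low in the saline group of day 2 and in the cyclophosphamide group of day 8, where replicate 3, of the last number range, is at 5.06 TPM.

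Col13a1, a transmembrane collagen of the neuromuscular junction, is listed at 0, 2.51 and 2.58 TPM in cyclophosphamide on day 8, below saline at 4.26, 3.55 and 2.91. The limma fit gave a log2 difference of −0.97 ± 0.32 (adjusted p = 0.649), and −0.36 without the library at 0, which therefore decides this value. On day 2 it was at 3.01, 5.05 and 3.74 in cyclophosphamide and at 1.59, 1.68 and 2.57 in saline, with a log2 difference of 0.74 (adjusted p = 0.618).

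Col28a1 on day 2 was at 60.3, 68.2 and 56.1 TPM in cyclophosphamide and at 42.2, 42.4 and 50.6 in saline. The groups did not overlap, with a log2 difference of 0.44 ± 0.14 (adjusted p = 0.420, limma). CVAD (56.0, 54.3 and 54.1) was also above each saline library, whereas dexamethasone (61.4, 62.6 and 45.6) overlapped. Saline of day 8 was at 71.0, 51.5 and 52.7. Medians by library number were 58.2, 45.6 and 56.0 TPM, the same order as for Col6a5, and with the term for library numbers the cyclophosphamide difference was 0.00539. That value too rests on dexamethasone replicate 3 of day 2.

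A few other members had unadjusted p-values under 0.05. Col19a1, a fibril-associated collagen also made by neurons, was at 7.70, 9.09 and 7.21 TPM in dexamethasone on day 2 and at 6.55, 5.63 and 5.12 in saline, without overlap (log2 difference 0.41 ± 0.18, adjusted p = 0.901, limma). Col24a1 was at 19.8, 21.03 and 23.05 in CVAD on day 8 and at 19.5, 15.1 and 18.2 in saline (0.27 ± 0.11, adjusted p = 0.724, limma), without overlap. Col16a1 was at 49.5, 57.8 and 59.9 in cyclophosphamide on day 8 and at 69.3, 67.5 and 67.2 in saline (−0.29 ± 0.11, adjusted p = 0.731, limma), also without overlap. On day 2 the same gene was at 66.0, 75.1 and 58.9 in cyclophosphamide and at 55.5, 58.1 and 58.8 in saline (0.20 ± 0.11, adjusted p = 0.704, limma). For Col11a2 in cyclophosphamide on day 2 the log2 difference was 0.54 (adjusted p = 0.664) and the groups overlapped.

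In the 3 groups of day 8 with no member at an unadjusted p under 0.05, the members of smallest p differed little. They were Col4a6 (0.44 ± 0.33) and Col6a6 (−0.36) for vincristine, Col24a1 (0.18 ± 0.11) and Col25a1 (0.35 ± 0.25) for doxorubicin, and Col6a4, which is listed at 0 in a library, and Col26a1 (0.46 ± 0.32) for dexamethasone. Each had an adjusted p of 1 in limma.

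CVAD was set against its single drugs to ask how the combination differs from each component. On day 2 limma called 0 members against cyclophosphamide (0.00393% of all genes) and 0 against dexamethasone (0%), with 0 members at an unadjusted p under 0.05 in either, where all genes had 3.83% and 3.66%. On day 8 CVAD against cyclophosphamide called 0% of all genes and 0 members, and 8 of 40 members (20%) had an unadjusted p under 0.05 against 5.34% of all genes. In this comparison 36 of 40 members were higher in CVAD (median log2 difference 0.27 beside 0.06 over all genes), including all 10 fibrillar genes. Of all tested genes, 66.0% were higher in CVAD.

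Among these 8, Col6a3 was at 72.6, 82.5 and 50.5 TPM in CVAD and at 31.0, 43.1 and 63.4 in cyclophosphamide (0.60 ± 0.23, adjusted p = 0.908, limma). The groups overlap, with CVAD replicate 3 inside the range of the cyclophosphamide libraries. Col6a2 was at 107, 114 and 99.5 in CVAD against 68.1, 91.9 and 93.1, and Col8a1 at 53.5, 60.7 and 60.4 against 39.8, 51.8 and 46.3, both without overlap. Their log2 differences were 0.35 and 0.34. The others were Col13a1 (0.71), Col5a2 (0.42), Col12a1 (0.35), Col24a1 (0.25) and Col16a1 (0.23). For Col13a1 this includes cyclophosphamide replicate 1, the library listed at 0. The members varied together across libraries, so these 8 are not separate observations, and the median was 0.11 without cyclophosphamide replicate 1 and at most 0.37 with 1 library left out. Fibroblast markers summed to 584 to 764 TPM in CVAD and to 569 to 749.7 in cyclophosphamide.

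Against the other single drugs of day 8, CVAD called 0% of all genes and 0 members each for vincristine, doxorubicin and dexamethasone. Members at an unadjusted p under 0.05 were 2 against vincristine (Col24a1 and Col27a1, 5% against 3.48% of all genes), 2 against doxorubicin (Col8a1 and Col20a1, 5% against 4.8%) and 1 against dexamethasone (Col24a1, 2.5% against 4.94%). Members higher in CVAD numbered 28, 25 and 26, beside 49.6%, 59.6% and 60.9% of all genes, and after median-ratio scaling 28, 20 and 21. Their median log2 differences were 0.08, 0.04 and 0.05, and with a term for the ranges of library numbers 0.39, 0.37 and 0.42. Col24a1 was at 17.01, 19.3 and 16.8 TPM with vincristine and at 18.8, 17.2 and 17.1 with dexamethasone, and all CVAD libraries (19.8, 21.03 and 23.05) lay above both groups.

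Time was compared through the saline groups and through the change of each response. Saline of day 8 against day 2 called 0.00393% of all genes and 0 members, with 4 members (10%) at an unadjusted p under 0.05 against 6.93%. These were Col6a5, Col6a6 (0.80), Col28a1 (0.36) and Col16a1 (0.24), all higher on day 8. Members higher on day 8 numbered 22 of 40, beside 64.5% of all genes, or 16 after median-ratio scaling. Their median was 0.02, and it turned to −0.05 with that scaling and to −0.29 with the term for library numbers.

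The response to CVAD (its difference from saline) on day 8 minus that on day 2 called 0.0826% of all genes and 0 members, with 3 members (7.5%) at an unadjusted p under 0.05 against 8.63%. Col6a6 had a difference of −1.32 (adjusted p = 0.253, limma) and Col6a5 one of −1.57 (adjusted p = 0.319). The member median was 0.08, and 0.44 with the term for library numbers. For cyclophosphamide the difference of responses called 0% of all genes and 0 members, with 6 members (15%) against 9.55%. Col6a5 had the smallest p of all members and comparisons, with −2.31 ± 0.55 (adjusted p = 0.135, limma). It passed with an adjusted p of 0.0424 in limma when libraries were weighted by quality. That weighted fit called 42 of all tested genes in this comparison, so it called more genes in general than the main fit. The other members at an unadjusted p under 0.05 in the main fit were Col13a1 (−1.70), Col6a6 (−1.42), Col11a2 (−0.91), Col28a1 (−0.71) and Col16a1 (−0.49). The value of Col13a1 includes the cyclophosphamide library of day 8 that is listed at 0. All 10 fibrillar genes had a lower response on day 8 (median −0.32), and 28 of 40 members did. A higher response was found for the other 12 members and for 32.5% of all tested genes, so the 2 shares were near each other. Median-ratio scaling moved the median of all genes from −0.11 to 0 here, and 21 of 40 members were then lower. The member median of −0.19 turned to 0.18 with the term for library numbers, and was 0.000734 without cyclophosphamide replicate 1 of day 8, so the direction of the members depends on both.

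For dexamethasone the difference of responses called 0% of all genes and 0 members, with 1 member, Col6a5 (−1.19), at an unadjusted p under 0.05 (2.5% against 4.92%). Members with a higher response on day 8 numbered 18 of 40, beside 35.4% of all genes, or 25 after median-ratio scaling. A moderated F test over the 4 groups of day 2 called 0.0118% of all genes and 0 members (2 at an unadjusted p under 0.05, Col6a5 and Col28a1, or 5%, against 5.58%). That over the 6 groups of day 8 called 0% and 0 members, with 0 at an unadjusted p under 0.05 against 4.24%.

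Genes that make, process, bind and break down collagen were listed from general knowledge, 81 in all, of which 77 were tested. None passed in limma in the 8 comparisons with saline. Highest among them were Sparc, a collagen-binding matrix protein (mean 251 TPM), Dcn, the small proteoglycan decorin (199), and the protease inhibitors Timp2 (192) and Timp3 (172). Serpinh1, the collagen chaperone of the endoplasmic reticulum, averaged 117 TPM, Pcolce, an enhancer of procollagen cleavage, 87.8, and the cross-linking enzyme Lox 63.9. Adamts2, a procollagen protease, and P4ha2, a prolyl hydroxylase subunit, are listed at 0 in every library.

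The gene of smallest p in each list over the comparisons with saline is given here, and none passed the threshold. Among them the groups of Lair1 and P4ha1 overlapped. Ccn2, a growth factor of the matrix, was at 29.7, 31.1 and 33.7 TPM in cyclophosphamide on day 2 and at 55.0, 63.6 and 70.5 in saline, without overlap (log2 difference −0.97 ± 0.31, adjusted p = 0.449, limma). Mmp8, a neutrophil collagenase, was at 6.44, 4.63 and 4.10 in CVAD on day 8 and at 15.2, 11.2 and 18.6 in saline (−1.39 ± 0.32, adjusted p = 0.185, limma), without overlap. The marrow granulocyte markers, a list of 8 genes that includes Mmp8 itself, summed to 65.4 to 95.8 TPM in CVAD and 219 to 364 in saline. Their part in this value was not tested. Adamts3, which removes the amino-terminal propeptide of procollagen, was at 15.3, 12.8 and 15.8 in cyclophosphamide on day 8 and at 20.8, 19.5 and 18.6 in saline (−0.41 ± 0.15, adjusted p = 0.723, limma). The remaining lists had Lair1, a collagen receptor of leukocytes (CVAD on day 2, 0.91 ± 0.28, adjusted p = 0.312, limma), P4ha1, a prolyl hydroxylase subunit (dexamethasone on day 8, 0.31 ± 0.13, adjusted p of 1), and Postn, a matrix protein of fibroblasts (cyclophosphamide on day 8, −0.47 ± 0.21, adjusted p = 0.816).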

How the data were processed

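Total RNA was depleted of ribosomal RNA and stranded libraries were sequenced, according to the labels. The authors deposited 1 table of TPM per gene. Per the submitters' processing notes the tools were STAR 2.7.10b, StringTie 2.2.1 and FastQC 0.12.1, and GRCm39 and mm10 are named as builds with no role given. The labels gave the drug and the day of each library. In limma 3.58.1 (R 4.3.3), log2(TPM + 1) of all 30 libraries was fitted at once, with 1 mean for each group and a variance trend. Genes with at least 1 TPM in at least 3 libraries were tested, and 2-sided p-values were adjusted by the Benjamini-Hochberg method at a threshold of 0.05. The steps were tested on simulated data.

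The members, the structural classes, the lists and the tests were chosen with earlier results of these data known. Gene symbols that the selection rule leaves out are not reported here. Values per library follow a rule: the 3 members of highest mean in each class (1 in a class of 1 or 2), those past the threshold, the 2 of smallest p in each comparison with saline, and the paired chains. The text gives a part of these. Members named for groups without overlap or for a low r with Col1a1 were chosen after their values were seen. How many of all tested genes had groups without overlap was not counted.

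Alternatives were a pseudocount of 0.1, no filter and a stricter filter (5 TPM), median-ratio scaling, coding genes rescaled to their own total, quality weights, separate fits by day or by the groups compared, covariates from bone and cartilage, muscle and spinal cord markers, group-centred values and each library left out. The ranges of library numbers, the term for them and the relations with Col1a1 were added after the data were seen. Promoters are RefSeq windows on GRCm38.p6, a build that is not that of the table's coordinates. Python 3.11.15, numpy 2.4.6, pandas 2.3.3 and matplotlib 3.10.9 were used.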

Additional observations from a re-analysis of the deposited data

How the results depend on the processing

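No collagen gene passed the threshold in any comparison when 1 library was left out. The count of called members was 0 under every alternative except library quality weights, which called 1 member, Col6a5, in the cyclophosphamide response of day 8 minus day 2 (log2 −2.52 ± 0.51, adjusted p = 0.0424, limma). In that comparison the weighted fit called 42 of all tested genes, and the main fit called 0. The correlation of Col9a2 and Col9a3 was 0.473 without cyclophosphamide replicate 1 of day 8, and ran from 0.129 to 0.473 with 1 library left out. The other 11 pairs kept their side of the threshold with another pseudocount or scaling, with group-centred values and with 1 library left out. Within single days Col4a3 and Col4a4 (day 2, p = 0.0886) and Col4a5 and Col4a6 (p = 0.0857 and 0.0898) missed 0.05 by permutation. With a term for the ranges of library numbers, chosen after the data were seen, Col6a5 turned to −0.801 for CVAD, −0.497 for cyclophosphamide and −0.239 for dexamethasone on day 2, and Col6a6 to −0.589 for CVAD on day 2. The same term moved the median log2 difference of the members from 0.170 to 0.484 for CVAD against saline on day 8, and to 0.387, 0.366 and 0.415 for CVAD against vincristine, doxorubicin and dexamethasone. It moved the median from 0.0163 to −0.292 for saline of day 8 against day 2, and from 0.0807 to 0.436 and from −0.186 to 0.176 for the CVAD and cyclophosphamide responses of day 8 minus day 2. The term rests on 2 groups. Its step from the first to the second range comes from dexamethasone of day 2, with replicate 3 alone in the second. Its step from the second to the third comes from cyclophosphamide of day 8, replicates 1 and 2 against replicate 3. Replicate 1 there had the lowest collagen sum of all libraries. The moved values thus carry the spread of these few libraries. The cause was not tested. No paired analysis was possible because replicate numbers were given in accession order only. Depth is unknown, so no counting error could be given.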
